A study of Mus musculus with 15 samples.

Results

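The epidermal growth factor (EGF) family ligands and the ERBB receptors were followed across the 5 lines of the series as 10 genes, 3 receptors (*Egfr*, *Erbb2* and *Erbb3*) and 7 ligands (*Areg*, *Ereg*, *Btc*, *Hbegf*, *Tgfa*, *Epgn* and *Nrg1*). They were chosen by gene symbol, with earlier results of these data known, and all 10 were found among the 35880 genes of the deposited table. LL2/Luc2 is a luciferase-carrying subline of the Lewis lung carcinoma, a mouse lung tumor line. RNA was sequenced from the parental line (LL2 WT), from *KEAP1* KO #1, #2 and #3, which are clones in which *Keap1* was targeted by CRISPR (clones #1, #2 and #3 below), and from *NRF2* KO, a clone in which *Nfe2l2*, the gene of NRF2, was targeted. Each line had 3 biologic replicates, 15 samples in all, grown in DMEM with serum and no further treatment. Each knockout line descends from 1 sorted cell and is thus 1 clone, *NRF2* KO is a single clone, and LL2 WT is the uncloned parent, so that an effect of the knockout and an effect of cloning cannot be told apart within 1 clone.

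ERBB receptors are membrane tyrosine kinases that pair with one another when a ligand binds. EGF family ligands are made as membrane-anchored precursors, are released by metalloproteases such as ADAM17, and bind EGFR, ERBB4 or both, whereas neuregulins bind ERBB3 and ERBB4. ERBB2 has no known ligand of its own and serves as a partner, and ERBB3 has little kinase activity. The receptors signal through RAS and ERK and through PI3K and AKT, and in lung tumors EGFR is a well-known oncogene. KEAP1 marks the transcription factor NRF2 for degradation, and *KEAP1* mutations in lung cancer leave NRF2 active.

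Values are given in CPM, reads scaled to a fixed total per sample, the unit in which the authors deposited them, and differences as log2 fold changes on the scale of log2(CPM + 0.1), which understates the change of low genes. The test was limma over all 5 lines and the 14652 genes whose values summed to 3 CPM or more over the 15 samples, and adjusted p-values are by the Benjamini-Hochberg method over these genes. A gene is called where the adjusted p is under 0.05 and the log2 fold change exceeds 1 in either direction. All 10 members but *Epgn* passed the filter. The comparisons with LL2 WT share the same 3 LL2 WT samples. The p-values rest on the spread between replicates within a line, pooled over all 5 lines, and hold no spread between clones. In bulk RNA a lower level in every cell and fewer cells with the gene cannot be told apart.

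The targeted genes and the cell type were checked first. *Keap1* lay between 22.0 and 24.0 CPM in LL2 WT, 10.8 and 12.5 CPM in clone #1, 3.78 and 7.29 CPM in clones #2 and #3, and 21.6 and 24.8 CPM in *NRF2* KO. *Nfe2l2* ranged from 170 to 208 CPM in LL2 WT and from 102 to 146 CPM in *NRF2* KO. It was lower than in LL2 WT in every *KEAP1* KO sample too, at 87.0 to 103 CPM in clone #1, 122 to 124 CPM in #2 and 111 to 123 CPM in #3, so its level does not set *NRF2* KO apart. *Nqo1*, a target of NRF2, was at 253 CPM or above in every *KEAP1* KO sample, between 26.1 and 36.5 CPM in LL2 WT, and at most 10.96 CPM in *NRF2* KO. Of the 5 epithelial markers, the keratins *Krt8* and *Krt18* averaged 102 and 534 CPM in LL2 WT, while *Epcam* and *Cdh1* reached at most 0.0485 and 0.0618 CPM in any sample. The lung epithelial markers *Nkx2-1*, *Sftpc* and *Scgb1a1* were also near 0 (up to 0.459 CPM summed), and mesenchymal *Vim* averaged 4289 CPM in LL2 WT, so that of the markers that would fit the label of a lung cancer line keratins were present and *Epcam*, *Cdh1* and the lung genes were at or near 0. The 5 epithelial markers summed to between 592 and 667 CPM in LL2 WT, 299 and 439 CPM in clone #1, 560 and 614 CPM in #2, 537 and 639 CPM in #3, and 386 and 548 CPM in *NRF2* KO. The 5 mesenchymal markers summed to between 3579 and 5820 CPM in LL2 WT, to a like range of 3247 to 4573 CPM in *NRF2* KO, and to between 1708 and 2166 CPM in clone #1, 1553 and 1936 CPM in #2, and 1619 and 2090 CPM in #3. The 4 immune markers summed to between 2.97 and 5.29 CPM in LL2 WT and to as much as 36.7 CPM in clone #3, nearly all of it *Cd68*, while the defining *Ptprc* and *Cd3e* reached at most 0.192 and 0.035 CPM. The 2 endothelial markers summed to between 2.42 and 3.66 CPM in LL2 WT and to at most 7.46 CPM in any line. Called by limma were 1 of 5 mesenchymal markers in clone #1 and 4 of 5 in clones #2 and #3, all lower. Also called in clones #2 and #3 were *Cd68* higher, *Lyz2* lower and endothelial *Cdh5* higher. The mesenchymal sums are mostly *Vim*, at 3447 to 5427 CPM in LL2 WT, and do not speak for each marker. Mesenchymal *Cdh2* rose in clones #1 and #3, passing the adjusted p but not the size required. Samples of these clones held 10.51 to 12.45 CPM of *Cdh2*, those of LL2 WT at most 7.04 CPM and those of clone #2 at most 0.450 CPM. *NRF2* KO samples held 9.73 to 11.04 CPM, which did not pass the adjusted p. The part of these markers in the results below was not tested.

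Per kilobase of transcript, the scale on which genes can be compared, *Areg* was by far the most abundant member, at 29.6 ± 5.60 CPM per kb in LL2 WT (SD, n = 3). The other ligands of EGFR followed at 3.47 ± 0.999 (*Hbegf*), 1.86 ± 0.262 (*Ereg*), 1.72 ± 1.16 (*Btc*) and 0.379 ± 0.0976 CPM per kb (*Tgfa*). *Egfr* at 1.68 ± 0.419 and *Erbb2* at 1.66 ± 0.0730 CPM per kb were alike in the parent, whereas *Erbb3* stood at 0.0870 ± 0.0532 CPM per kb. *Nrg1* was at 1.08 ± 0.289 and *Epgn* at 0.154 ± 0.0289 CPM per kb. In clone #2 the level of *Areg* reached 80.1 ± 7.61 CPM per kb, while that of *Egfr* was 0.170 ± 0.0477 CPM per kb. Lengths are medians of the annotated coding transcripts, which the expressed isoform need not match.

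**Figure D1:**
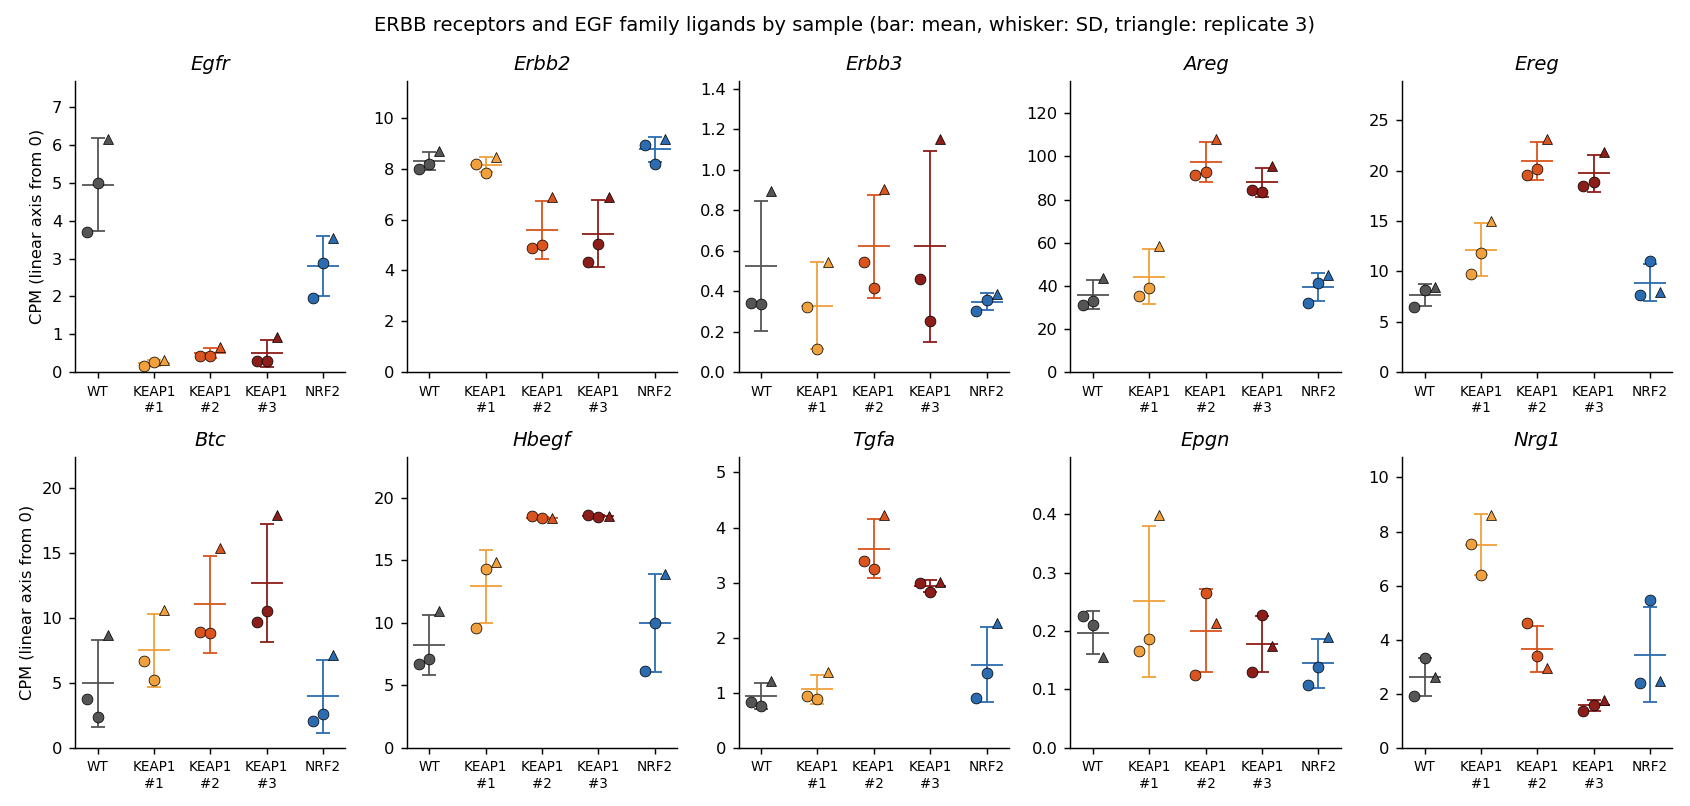
CPM of the 10 genes (y axis, linear from 0) in the 15 samples (x axis, by line). Points are samples, triangles mark replicate 3, and bars and whiskers are the mean and SD of 3 replicates. *Egfr* stays under 1 CPM in all 9 *KEAP1* KO samples, and *Areg*, *Ereg*, *Hbegf* and *Tgfa* form a high plateau in clones #2 and #3.

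Of the receptors, *Egfr* was lower in every *KEAP1* KO clone. Its levels were 3.69, 5.00 and 6.16 CPM in LL2 WT replicates 1, 2 and 3, and 1.97, 2.88 and 3.54 CPM in *NRF2* KO. They were 0.162, 0.265 and 0.310 CPM in clone #1, 0.418, 0.421 and 0.662 CPM in clone #2, and 0.299, 0.285 and 0.916 CPM in clone #3. The 9 *KEAP1* KO samples thus all lay below the lowest sample of the other lines, and clone #1 also lay below every sample of clone #2. Against LL2 WT its log2 fold changes were −3.86, −3.07 and −3.20 in clones #1, #2 and #3, each with a standard error of 0.386 (adjusted p = 2.26e-05, 7.28e-05 and 4.66e-05). It was −0.81 in *NRF2* KO, with all 3 samples below those of LL2 WT, and this did not pass the test (adjusted p = 0.463). Against *NRF2* KO the mean of the 3 *KEAP1* KO clones was lower by a log2 fold change of −2.57 (adjusted p = 5.48e-05). No difference in *Egfr* between 2 of the *KEAP1* KO clones was called, the largest being −0.80 for #1 against #2 (adjusted p = 0.232, 95% confidence interval −1.63 to 0.04).

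*Erbb2*, the ligandless partner receptor, was at 8.01, 8.197 and 8.71 CPM in LL2 WT, 8.197, 7.84 and 8.45 CPM in clone #1, and 8.93, 8.19 and 9.16 CPM in *NRF2* KO. These 3 lines overlapped. *Erbb2* was at 4.88, 4.99 and 6.89 CPM in clone #2 and at 4.34, 5.06 and 6.90 CPM in clone #3, below every sample of the other lines. The log2 fold changes of −0.58 (adjusted p = 0.0215) and −0.63 (adjusted p = 0.0145) against LL2 WT passed the adjusted p but not the fold change, so neither is called. *Erbb3*, the receptor of neuregulins with little kinase activity, lay between 0.114 and 1.15 CPM in all samples, and all 5 lines overlapped. Its log2 fold changes against LL2 WT ran from −0.57 to 0.27 with standard errors of 0.528, and the 95% confidence interval in clone #2 reached from −0.87 to 1.41. *Erbb4*, the remaining receptor, was at or near 0 (at most 0.0111 CPM) in every sample.

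*Egfr* lies on the plus strand of chromosome 11 (16752203 to 16918158 of GRCm38) and *Erbb2* on the same strand of this chromosome (98412470 to 98437716). *Erbb3* lies on the minus strand of chromosome 10 (128567523 to 128589652), *Tgfa* on the plus strand of chromosome 6 (86195223 to 86275719) and *Nrg1* on the minus strand of chromosome 8 (31814551 to 32884029). The annotation places *Egfros* on the opposite strand over *Egfr* and *Mien1* over *Erbb2*, and whether strand was used in counting is not given in the sources used here. *Mien1* averaged 43.3 ± 11.3 CPM in LL2 WT and was called in no line. Of the 31-base stretches of the members' transcripts, at most 0.852% (*Egfr*) occur in a transcript of another gene in the same orientation. The opposite orientation was not searched, so this does not show whether reads were shared with genes on the opposite strand.

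**Figure D2:**
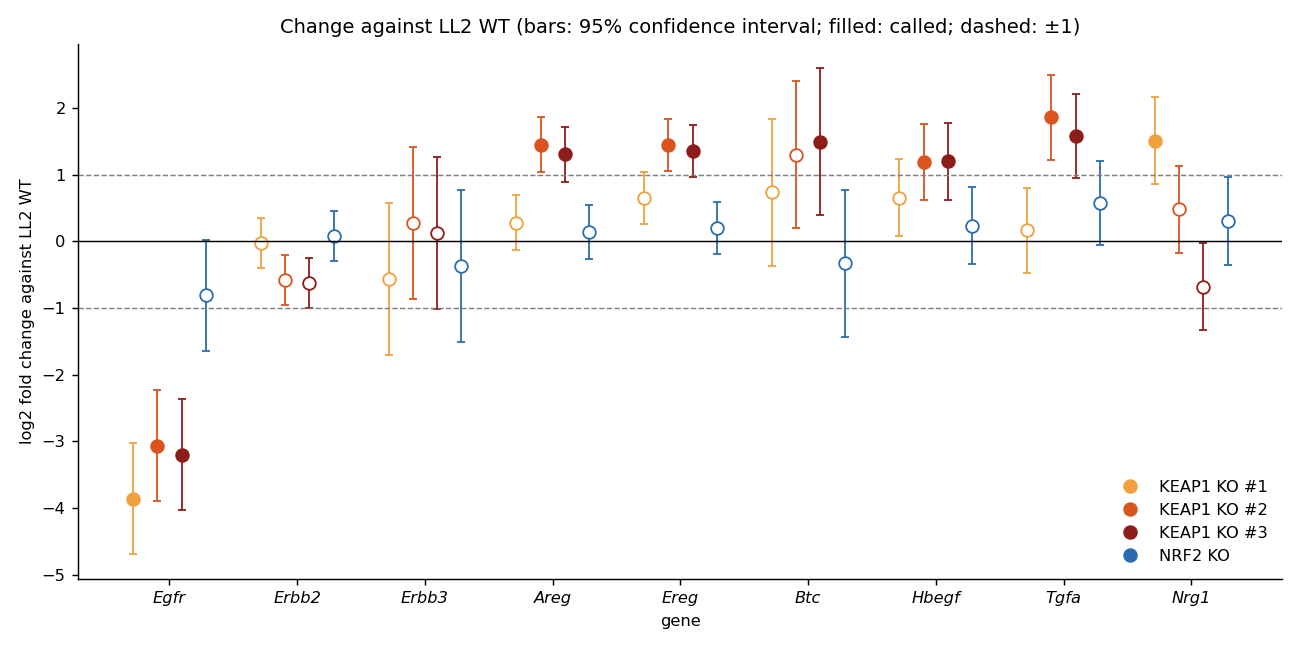
Log2 fold change of the 9 tested genes against LL2 WT (y axis) for the 4 knockout lines (x axis, by gene). Bars are 95% confidence intervals from limma, filled points are called, and dashed lines mark a log2 fold change of 1 in either direction. *Egfr* lies near −3 to −4 in the 3 *KEAP1* KO clones, and the ligands lie above 1 in #2 and #3 but *Nrg1*, which is called in #1.

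Of the ligands of EGFR, *Areg*, *Ereg*, *Hbegf* and *Tgfa* were higher in clones #2 and #3, and *Btc* in clone #3. *Areg* encodes amphiregulin, which binds EGFR alone. It was at 31.2, 32.8 and 43.7 CPM in LL2 WT. *NRF2* KO had 32.0, 41.5 and 44.8 CPM and clone #1 had 35.1, 38.9 and 58.7 CPM. In clone #2 it was at 91.2, 92.9 and 108 CPM, and in clone #3 at 84.6, 83.5 and 95.8 CPM, so these 6 samples lay above the other 9 while the remaining lines overlapped. Clone #2 exceeded LL2 WT by 1.45 ± 0.190 on the log2 scale (2.73-fold, adjusted p = 0.000102) and clone #3 by 1.304 ± 0.190 (2.47-fold, adjusted p = 0.000218). The log2 fold change was 0.28 (adjusted p = 0.316) in clone #1 and 0.14 (adjusted p = 0.848) in *NRF2* KO, neither of them called.

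*Ereg* encodes epiregulin, a ligand of EGFR and ERBB4. It was at 6.44, 8.11 and 8.46 CPM in LL2 WT. *NRF2* KO had 7.61, 10.99 and 7.99 CPM and clone #1 had 9.71, 11.8 and 14.96 CPM. In clone #2 it was at 19.6, 20.2 and 23.1 CPM and in clone #3 at 18.5, 18.9 and 21.9 CPM. All 9 *KEAP1* KO samples lay above LL2 WT, with #1 between the parent and the other clones. The log2 fold changes of clones #2 and #3 were 1.44 and 1.36, with a standard error of 0.181 (adjusted p = 6.99e-05 and 0.000105). Clone #1 at 0.65 (adjusted p = 0.0216) passed the adjusted p but not the size required, and *NRF2* KO was at 0.20 (adjusted p = 0.753).

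*Hbegf* encodes the heparin-binding ligand of EGFR and ERBB4. It was at 6.67, 7.07 and 10.97 CPM in LL2 WT. *NRF2* KO had 6.11, 9.95 and 13.9 CPM and clone #1 had 9.56, 14.3 and 14.9 CPM. In clones #2 and #3 its 6 values ran only from 18.4 to 18.6 CPM, above all other samples. The log2 fold change was 1.19 ± 0.266 (adjusted p = 0.00449) in clone #2 and 1.199 ± 0.266 (adjusted p = 0.00415) in clone #3. It was 0.65 (adjusted p = 0.0940) in clone #1 and 0.24 (adjusted p = 0.806) in *NRF2* KO.

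*Tgfa* encodes transforming growth factor alpha, another ligand of EGFR alone. It was at 0.829, 0.767 and 1.21 CPM in LL2 WT and at 0.932, 0.881 and 1.37 CPM in clone #1. It was at 3.38, 3.24 and 4.23 CPM in clone #2, 2.99, 2.82 and 3.02 CPM in clone #3, and 0.911, 1.37 and 2.26 CPM in *NRF2* KO. Clone #2 lay above clone #3, and both above all other samples. The difference from LL2 WT was 1.86 ± 0.293 on the log2 scale (3.63-fold, adjusted p = 0.000404) in clone #2 and 1.58 ± 0.293 (2.99-fold, adjusted p = 0.0013) in clone #3. For clone #1 and *NRF2* KO it was 0.16 and 0.58, and neither is called (adjusted p = 0.728 and 0.504).

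*Btc* encodes betacellulin, which binds EGFR and ERBB4, and had the largest standard error of the member ligands tested. It was at 3.78, 2.37 and 8.72 CPM in LL2 WT. *NRF2* KO had 2.07, 2.60 and 7.19 CPM and clone #1 had 6.69, 5.20 and 10.6 CPM. In clone #2 it was at 8.94, 8.85 and 15.4 CPM and in clone #3 at 9.71, 10.5 and 17.95 CPM. Replicate 3 was the highest sample in all 5 lines, by a median of 0.84 on the log2 scale over the mean of the other replicates, and all 6 samples of #2 and #3 lay above LL2 WT. The log2 fold change of clone #3 was 1.49 ± 0.510 and is called (adjusted p = 0.0407), while that of clone #2 was 1.296 ± 0.510 and is not (adjusted p = 0.0685). Clone #1 was at 0.73 and *NRF2* KO at −0.33 (adjusted p = 0.327 and 0.866). With only replicates 1 and 2 of every line it was called in both clones, at 1.54 in clone #2 (adjusted p = 0.00193). Leaving out any 1 of the 6 samples but LL2 WT replicate 3 ended the call in clone #3 (log2 fold change from 1.08 to 1.66, adjusted p of up to 0.133). Clone #2 was called without LL2 WT replicate 3 (adjusted p = 0.0189).

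Replicate 3 was the highest sample in all 5 lines also for *Egfr*, *Erbb2*, *Erbb3*, *Areg* and *Tgfa*, a pattern shown by 20.5% of all genes tested (3008 of 14652). The labels name no batch. With only replicates 1 and 2 of every line, the counts of members called were 2, 6, 6 and 0 in clones #1, #2, #3 and *NRF2* KO, and all calls made with 3 replicates were among them.

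*Nrg1*, which encodes a neuregulin that binds ERBB3 and ERBB4, had another order of lines. It was at 1.92, 3.32 and 2.61 CPM in LL2 WT and at 2.39, 5.47 and 2.46 CPM in *NRF2* KO. It was at 7.55, 6.39 and 8.61 CPM in clone #1, 4.62, 3.41 and 2.95 CPM in clone #2, and 1.38, 1.57 and 1.75 CPM in clone #3. Clone #1 lay above and clone #3 below all other samples. Clone #1 exceeded LL2 WT by 1.51 ± 0.305 on the log2 scale (2.85-fold, adjusted p = 0.0035). The log2 fold changes of clones #2 and #3 and of *NRF2* KO were 0.48, −0.68 and 0.31, none of them called (adjusted p = 0.254, 0.107 and 0.775).

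*Epgn*, which encodes the EGFR ligand epigen, was between 0.107 and 0.399 CPM in all samples, with all lines overlapping, and was not tested. *Egf* itself averaged between 0.427 and 0.663 CPM in the 5 lines, *Nrg2* between 1.24 and 3.48 CPM and *Nrg4* between 0.252 and 0.575 CPM. None of these 3 was called against LL2 WT in any line, and *Nrg2* was called lower in the mean of the 3 *KEAP1* KO clones than in *NRF2* KO (−1.08, adjusted p = 0.0452), with overlapping samples. *Nrg3* was at or near 0 (at most 0.0352 CPM).

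The members were chosen with earlier results of these data known, so nothing is read from their counts beside the shares of all genes. Over the 9 members tested, 2 were called in clone #1, against 8.54% of all genes, *Nrg1* higher (4.55% of all genes) and *Egfr* lower (3.99%). In clone #2, 5 were called, against 13.7% of all genes, with 4 ligands higher (5.94% of all genes) and *Egfr* lower (7.75%). In clone #3, 6 were called, against 13.4%, with 5 ligands higher (6.09%) and *Egfr* lower (7.34%). In *NRF2* KO limma called 0 of 9, against 0.464% of all genes, and 0 also had an unadjusted p under 0.05. The median log2 fold change of the 9 was 0.28, 1.19, 1.199 and 0.14 in clones #1, #2, #3 and *NRF2* KO, beside 0.11, 0.03, 0.02 and 0.04 for all genes tested. For the mean of the 3 *KEAP1* KO clones, 6 members were called against LL2 WT (12.7% of all genes), the same genes as in clone #3. This count fell to 3 (*Egfr*, *Ereg* and *Tgfa*) without LL2 WT replicate 1 or 2 or without replicate 3 of clone #1, and *Areg* and *Hbegf*, at 1.01 each, lay just past the size required. The p-values of such a mean leave out the spread between clones, and of the 6 genes only *Egfr* was called in clone #1 itself. Against *NRF2* KO 2 were called (9.94% of all genes), *Egfr* and *Btc*, the latter at 1.501 (adjusted p = 0.0172) and no longer without *NRF2* KO replicate 1 or 2. There *Areg* at 0.87 (adjusted p = 0.00102) and *Ereg* at 0.95 (adjusted p = 0.000363) were under the fold change required.

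The 3 *KEAP1* KO clones were then set against one another, which asks whether clones made with the same target share these levels. Between clones #1 and #2, 3 of 9 members were called (4.58% of all genes). *Areg* was lower in #1 by a log2 fold change of −1.17 ± 0.190 (adjusted p = 0.00178), and *Tgfa* by −1.70 ± 0.293 (adjusted p = 0.00268). *Nrg1* was higher in #1 by 1.03 ± 0.305 (adjusted p = 0.0460), a call that was lost on leaving out any 1 of the 6 samples (adjusted p from 0.0601 to 0.146). Between clones #3 and #1, 3 were called (4.63% of all genes). *Areg* was higher in #3 by 1.03 ± 0.190 (adjusted p = 0.0041) and *Tgfa* by 1.41 ± 0.293 (adjusted p = 0.00748), whereas *Nrg1* was lower by −2.19 ± 0.305 (4.56-fold, adjusted p = 0.000647). The call of *Areg* depended on the size threshold, as the difference ran from 0.88 to 1.247 on leaving out 1 sample and fell under 1 without clone #1 replicate 1 or 2 or clone #3 replicate 3. *Ereg* differed from #1 by 0.80 in #2 (adjusted p = 0.0132) and 0.71 in #3 (adjusted p = 0.0213), less than the size required. Between clones #3 and #2 limma called 0 of 9 (0.485% of all genes), and 1 member had an unadjusted p under 0.05, *Nrg1* at −1.16 (adjusted p = 0.145). The intervals of the differences between #3 and #2 were −0.55 to 0.27 for *Areg*, −0.47 to 0.31 for *Ereg*, −0.56 to 0.58 for *Hbegf* and −0.91 to 0.35 for *Tgfa* (95% confidence, log2).

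*Areg*, *Ereg*, *Btc* and *Epgn* are neighbours on mouse chromosome 5, and the promoters of 3 of them are shown beside that of *Egfr*, since these genes carry the differences above or, for *Epgn*, lie among them at a low level. The sequences are the 250 bases before each annotated start in RefSeq (GRCm38.p6), written 5′ to 3′ on the strand of the gene, and capitals mark a cyclic AMP response element (TGACGTCA) or a TATA box (TATAAA). RefSeq promoters were matched for 6 of the 10 members (*Epgn*, *Areg*, *Btc*, *Tgfa*, *Egfr* and *Erbb2*).
*Areg*, chr5:91139349-91139598, plus strand: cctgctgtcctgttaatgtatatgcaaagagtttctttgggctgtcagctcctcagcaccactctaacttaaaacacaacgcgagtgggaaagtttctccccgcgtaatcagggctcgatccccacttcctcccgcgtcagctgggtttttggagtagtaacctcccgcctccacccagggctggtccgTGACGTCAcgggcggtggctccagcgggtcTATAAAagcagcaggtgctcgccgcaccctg
*Epgn*, chr5:91027267-91027516, plus strand: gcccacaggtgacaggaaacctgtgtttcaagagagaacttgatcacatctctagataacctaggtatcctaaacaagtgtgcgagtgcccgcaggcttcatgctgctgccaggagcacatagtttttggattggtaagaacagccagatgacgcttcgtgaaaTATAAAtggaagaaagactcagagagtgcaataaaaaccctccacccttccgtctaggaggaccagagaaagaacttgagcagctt
*Btc*, chr5:91402995-91403244, minus strand: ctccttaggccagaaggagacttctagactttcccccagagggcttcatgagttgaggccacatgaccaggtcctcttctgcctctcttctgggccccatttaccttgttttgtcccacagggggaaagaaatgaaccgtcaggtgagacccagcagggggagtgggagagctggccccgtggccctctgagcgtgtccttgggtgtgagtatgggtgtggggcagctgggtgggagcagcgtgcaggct
*Egfr*, chr11:16751953-16752202, plus strand: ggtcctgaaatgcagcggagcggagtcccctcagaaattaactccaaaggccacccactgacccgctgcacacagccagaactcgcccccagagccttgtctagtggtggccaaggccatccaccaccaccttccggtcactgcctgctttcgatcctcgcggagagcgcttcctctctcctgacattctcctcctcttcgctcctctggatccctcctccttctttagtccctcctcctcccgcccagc
The *Areg* window held both motifs, TGACGTCA beginning 61 bases and TATAAA 31 bases before the start, and the *Epgn* window held TATAAA at 86 bases. Of 32851 promoters of the same length, 1.55% held TGACGTCA and 12.4% held TATAAA, searched on both strands. The core of the antioxidant response element, the site of NRF2 (TGACNNNGC), was found in 3338 of all promoters and in 0 of the 6 members', and the AP-1 site (TGANTCA) in 6.75% of all and in 0 of 6. These letters describe this window alone.

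Around *Areg* (91139599 to 91148432, plus strand), *Ereg* starts 65.0 kb and *Epgn* 112 kb before it, and *Btc*, on the minus strand, starts 263 kb beyond it. A window of 500 kb on either side, chosen after values in it had been seen, holds 14 coding genes with their starts, of which 11 were tested. Called higher were 3 of them in clone #2 (*Rassf6*, *Ereg* and *Areg*), 6 in clone #3 (also *Btc* and the chemokine genes *Cxcl1* and *Cxcl5*) and 1 in clone #1 (*Cxcl2*), beside 5.94%, 6.09% and 4.55% of all genes called higher in these clones, from which nothing is read since the window followed the values. None was called lower in any line, and limma called 0 in *NRF2* KO (the unadjusted p was under 0.05 for 1 of the 11). *Cxcl1* had log2 fold changes of 1.52 in clone #1 and 1.55 in clone #2 that did not pass the adjusted p (0.121 and 0.0963). *Cxcl2* averaged only 0.678 ± 0.654 CPM in clone #1 and 0.0356 CPM in LL2 WT, so its call (adjusted p = 0.0492) rests on values near 0. *Rassf6*, which encodes a RAS-association domain protein, averaged 0.224 ± 0.0819 CPM in LL2 WT and rose to 0.868 ± 0.398 CPM in clone #2 and 1.39 ± 0.393 CPM in clone #3 (SD, n = 3), with log2 fold changes of 1.53 (adjusted p = 0.0114) and 2.19 (adjusted p = 0.0012). With a pseudocount of 1 CPM neither of these 2 was called. *Mthfd2l*, a gene of folate metabolism between the chemokines and *Epgn*, averaged 17.2 ± 1.94 CPM in LL2 WT, against 26.0 ± 3.53, 23.2 ± 0.450 and 24.7 ± 2.25 CPM in the 3 clones, with log2 fold changes of 0.43 to 0.58 that are not called. *Epgn*, between *Mthfd2l* and *Ereg*, was too low to be tested.

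**Figure D3:**
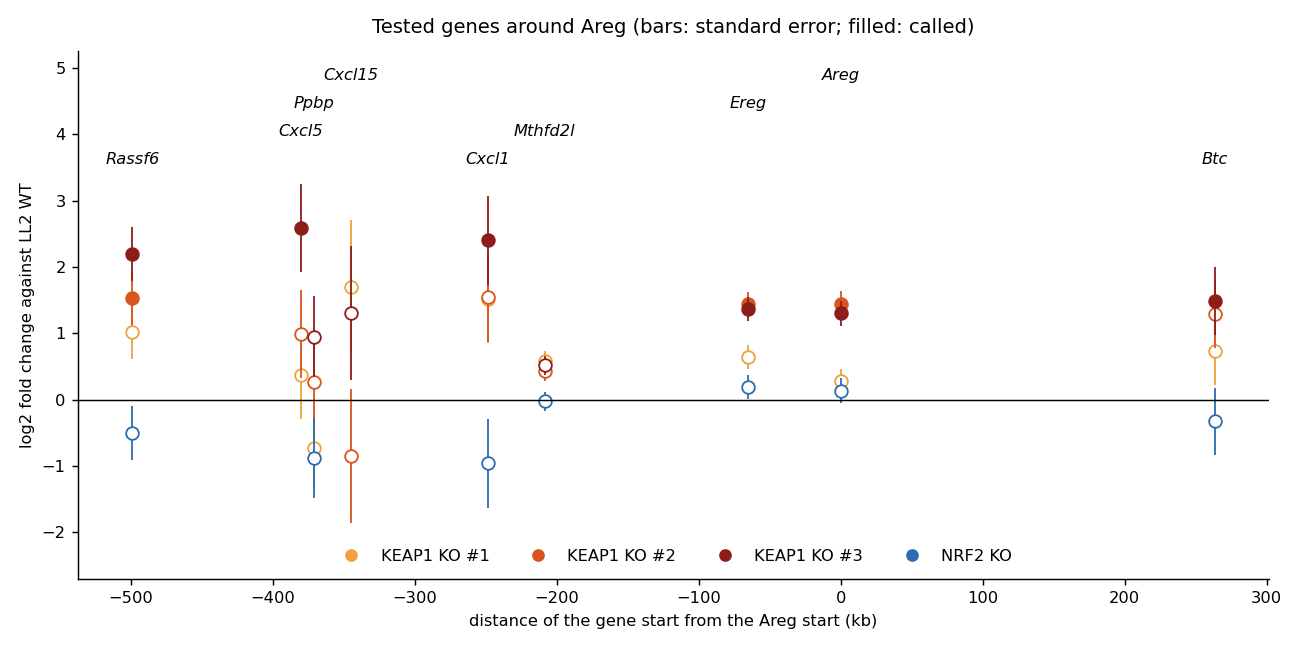
Log2 fold change against LL2 WT (y axis) of tested genes within 500 kb of *Areg*, by the distance of their starts from the *Areg* start in kb (x axis). Bars are standard errors, filled points are called, and points whose line or LL2 WT averaged under 0.1 CPM are left out. *Ereg*, *Areg* and *Btc* lie between 1.296 and 1.49 in clones #2 and #3, and no *NRF2* KO point is called.

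The other genes of the pathway were taken as lists, whose counts of genes called stand beside 8.54%, 13.7%, 13.4% and 0.464% of all genes called in clones #1, #2, #3 and *NRF2* KO. These lists too were chosen with earlier results of these data known, so nothing is read from their counts. Of 9 shedding genes 8 were tested, and *Adam17* and *Adam10*, the proteases best known for cutting EGFR ligands, averaged 68.5 ± 6.53 and 62.2 ± 13.1 CPM in LL2 WT and were called in no line. *Adam10* lay above all LL2 WT samples in the 3 *KEAP1* KO clones, by 0.43, 0.36 and 0.47 on the log2 scale, which passed the adjusted p but not the size required (adjusted p = 0.0259, 0.0410 and 0.0115), and *Adam17* likewise passed only the adjusted p in clone #2 at 0.42 (adjusted p = 0.0244). *Adam8*, another metalloprotease, was at 0.617, 0.576 and 0.948 CPM in LL2 WT, 3.70, 4.07 and 10.9 CPM in clone #2 and 5.58, 5.77 and 12.5 CPM in clone #3. Its log2 fold changes were 2.81 ± 0.472 (adjusted p = 0.000659) and 3.23 ± 0.472 (adjusted p = 0.000224) with no overlap, against 1.07 (adjusted p = 0.120) in clone #1 and 0.15 in *NRF2* KO. *Rhbdf2*, a rhomboid-like partner of ADAM17, was called only in clone #3 of the 4 lines, at 1.01 (adjusted p = 0.0433), and lost this call on leaving out any 1 of the 6 samples but LL2 WT replicate 3 (log2 fold change from 0.71 to 1.33). The list thus had 0, 1, 2 and 0 genes called in clones #1, #2, #3 and *NRF2* KO, all higher, and its median log2 fold changes were 0.22, 0.39, 0.29 and 0.02.

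The list of 9 receptor brakes held genes whose products inhibit ERBB receptors or promote their degradation. It also held *Lrig2* and *Lrig3*, relatives of *Lrig1* for which such an action is not assumed here. All 9 were tested, and 3, 2, 2 and 0 were called in this order of lines, all lower. Beside them stand 3.99%, 7.75% and 7.34% of all genes called lower in clones #1, #2 and #3. *Lrig1*, which encodes a membrane protein that promotes ERBB degradation, fell in every *KEAP1* KO clone and averaged 104 ± 26.4 CPM in LL2 WT against 35.8 ± 8.69, 26.2 ± 4.59 and 24.3 ± 4.04 CPM in clones #1, #2 and #3. The log2 fold changes were −1.53, −1.97 and −2.08 (adjusted p = 0.00108, 9.76e-05 and 5.71e-05), against −0.32 (adjusted p = 0.719) in *NRF2* KO. *Errfi1*, an ERK-induced inhibitor of EGFR, averaged 65.0 ± 19.6 CPM in LL2 WT, against 28.6 ± 10.6, 33.7 ± 7.56 and 29.2 ± 5.63 CPM in the clones. The differences of −1.196, −0.92 and −1.12 on the log2 scale had adjusted p-values of 0.0131, 0.0337 and 0.0132, and the second is not called. Both calls were lost without LL2 WT replicate 3 (adjusted p = 0.0560 and 0.0571), that in clone #1 also without its replicate 1 or 2, and that in clone #3 without its replicate 2. *Lrig3*, a relative of *Lrig1*, averaged 1.18 ± 0.367 CPM in the parent, and 0.0229 ± 0.0209, 0.399 ± 0.135 and 1.07 ± 0.296 CPM in clones #1, #2 and #3. It was called lower in #1, where its values are too near 0 for a fold, and in #2 at −1.35 (adjusted p = 0.00769), though not with pseudocounts of 1, 0.5 or 0.01 CPM. The list's median log2 fold changes were −0.06, −0.20, −0.02 and 0.21, and the other 6 genes were called in no line. Of these, *Rnf41*, a ubiquitin ligase of ERBB3, was higher in clones #2 and #3 at 0.73 and 0.90 (adjusted p = 0.000529 and 0.000105), and *Socs4* in clones #1, #2 and #3 at 0.44, 0.47 and 0.51 (adjusted p = 0.0170, 0.00889 and 0.00533), all under the size required.

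The 18 adaptors and signal relays were all tested, and 0, 1, 1 and 0 were called, beside the shares of all genes given above. By the adjusted p alone, with no size required, 6 were higher and 1 lower in clone #1. Those counts were 2 and 2 in clone #2, 5 and 2 in clone #3, and 0 and 0 in *NRF2* KO. The share of all genes by the adjusted p alone was not taken, so nothing is read from these counts. The gene called was *Plcg1*, which encodes a phospholipase that binds activated EGFR, at −1.23 (adjusted p = 0.0113) in clone #2 and −1.29 (adjusted p = 0.00887) in clone #3. The call in clone #2 was lost without its replicate 1 or 2. *Plcg1* averaged 27.8 ± 6.11 CPM in LL2 WT, against 12.16 ± 4.85 and 11.8 ± 4.91 CPM in these clones. *Grb2*, *Shc1*, *Sos1*, the RAS genes and the PI3K genes were called in no line, and the list's median log2 fold changes were 0.16, 0.19, 0.24 and 0.08.

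Of 9 early response genes, which ERK signaling induces, 2, 2, 3 and 0 were called, beside the 8.54%, 13.7%, 13.4% and 0.464% of all genes given above. *Dusp6*, the phosphatase that switches ERK off, averaged 275 ± 143 CPM in LL2 WT, against 93.9 ± 29.5, 107 ± 20.5 and 95.2 ± 7.63 CPM in clones #1, #2 and #3. The differences of −1.46, −1.255 and −1.40 on the log2 scale had adjusted p-values of 0.0119, 0.0190 and 0.0108. *Spry4*, an inhibitor of receptor kinase signaling, averaged 37.5 ± 11.7 CPM in LL2 WT, against 15.7 ± 3.31, 13.8 ± 2.54 and 12.0 ± 1.29 CPM in the clones. The differences of −1.22, −1.40 and −1.59 on the log2 scale had adjusted p-values of 0.00902, 0.00286 and 0.00113. All 9 *KEAP1* KO samples lay below every LL2 WT sample for both genes. The *Dusp6* calls in #1 and #2 were lost with only the 2 lines compared in the model (adjusted p = 0.0675 and 0.0592), that in #1 also without its replicate 2, and that in #2 without its replicate 1 or 2 or without LL2 WT replicate 3 (−0.86, adjusted p = 0.0830). *Phlda1*, which encodes a pleckstrin-homology protein, moved the other way and was called in clone #3 at 1.06 (adjusted p = 0.0014), but not without LL2 WT replicate 1 (0.96) or clone #3 replicate 3 (0.93). It was not called in clone #2, at 41.1 to 62.4 CPM against 23.4 to 33.7 CPM in LL2 WT. *Fosl1* of this list ran from 145 to 188 CPM in clone #2 and from 131 to 166 CPM in clone #3. It reached at most 129 CPM in LL2 WT and was called in no line. In each of clones #2 and #3 the log2 fold change was positive for 3 of the 9 genes and negative for 6. *Egr1* and *Fos*, the fastest of the list, were called in no line, and *Fos* ranged from 0.758 to 173 CPM and *Egr1* from 1.19 to 63.6 CPM within LL2 WT. In *NRF2* KO *Dusp6* was at −0.40 (adjusted p = 0.753) and *Spry4* at −0.49 (adjusted p = 0.580). The list's median log2 fold changes were −0.54, −0.49, −0.54 and −0.40. In *NRF2* KO, where limma called 0 genes of the 4 lists, 0 of the shedding, 1 of the brake, 4 of the adaptor and 0 of the early response genes had an unadjusted p under 0.05. In clone #1 so did 4 of the shedding and 7 of the adaptor genes. The share of all genes with an unadjusted p under 0.05 was not taken, so nothing is read from these counts.

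**Figure D4:**
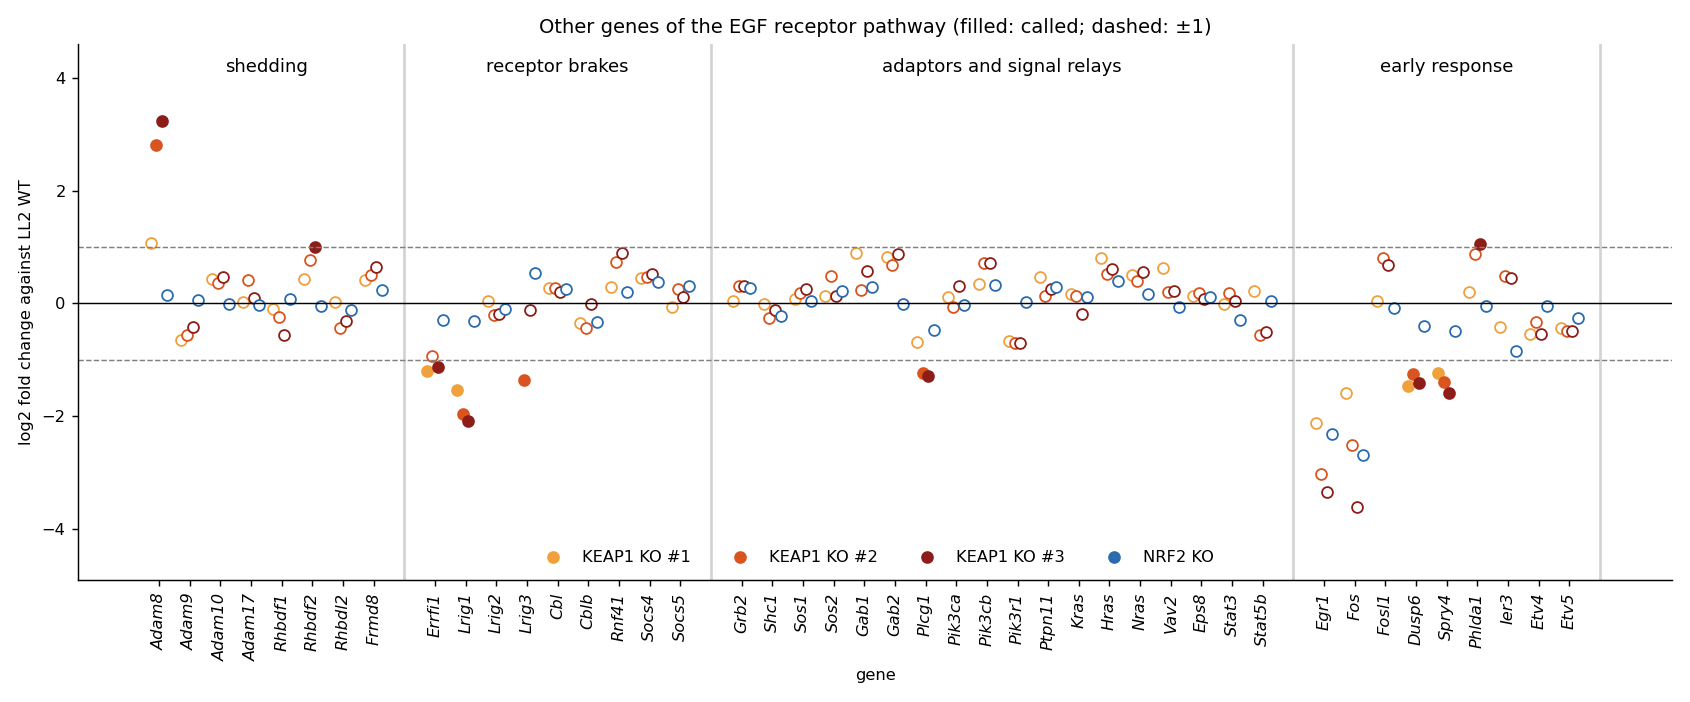
Log2 fold change against LL2 WT (y axis) of 44 tested genes of the 4 pathway lists (x axis), by line. Filled points are called, dashed lines mark 1 and −1, and the point of *Lrig3* in clone #1 is left out because its level was under 0.1 CPM. *Lrig1*, *Dusp6* and *Spry4* are called lower in all 3 *KEAP1* KO clones, and *Adam8* is highest in #2 and #3.

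For the members called against LL2 WT, the genes with the most similar levels over the 15 samples were found among the 11676 genes averaging 1 CPM or more. The samples of a line share their clone, so the correlations mostly order the lines and are given as a description. *Egfr* was most like *Adora2b* (Pearson r = 0.968), *Kank3* and *Nmt2*, and *Areg* most like *Bcar3* (r = 0.973), *Dazap2* and *Syvn1*. *Ereg* was most like *Clcf1* (r = 0.974), *Onecut2* and *Gfra1*, *Btc* like *Pvr* (r = 0.974), *Grina* and *Tnxb*, and *Hbegf* like *Ano6* (r = 0.951), *Pdpk1* and *Gabpa*. *Tgfa* was most like *Sh3bgrl2* (r = 0.965), with *Areg* the second (r = 0.952) and *Syvn1* the third. *Nrg1* had no gene as close, its first being *Lysmd2* (r = 0.888), *Mapkapk3* and *Elovl4*. Among the members, *Areg* and *Ereg* had r = 0.955 and *Areg* and *Hbegf* r = 0.903, whereas *Areg* and *Nrg1* had r = −0.269 and *Areg* and *Egfr* r = −0.515.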

How the data were processed

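RNA of 15 samples of 5 LL2 lines was measured by RNA sequencing. The authors deposited CPM per gene. Per the paper's methods reads were pseudo-aligned with Kallisto v0.48.0 to GRCm38.p6 cDNA, whereas the submitters' processing notes name GRCm39 and bcl2fastq 1.9.0. The CPM sum to between 998941 and 999306 per sample, are fractional and hold no read counts, so no counting interval is given: the methods state only an average depth over samples. An entry without a symbol (0.0214% to 0.049% of a sample) was left out.

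For each gene summing to 3 CPM or more, log2(CPM + 0.1) was modelled in limma 3.58.1 (R 4.3.3) with 1 mean for each line and a mean-variance trend, and p-values were adjusted by Benjamini-Hochberg over all genes tested. No fold is given where a line averaged under 0.1 CPM.

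Named are all members, every list gene called against LL2 WT, the rest of the family, and the 3 genes most like each called member. The members and lists were chosen with earlier results of these data known. Positions and lengths are from GENCODE M21 (GRCm38). Alternatives tried were pseudocounts, filters, scalings, the samples in the model, no trend, a replicate block, replicate 3 as a batch, and leaving out samples.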

Additional observations from a re-analysis of the deposited data

Results flagged for a closer look

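The levels of 3 members differed between *KEAP1* KO clones, by limma's test of the difference between the clones themselves, in which knockout and cloning cannot be told apart. *Areg* was lower in *KEAP1* KO #1 than in #2 by a log2 fold change of −1.17, and higher in #3 than in #1 by 1.03. *Tgfa* differed in the same way, by −1.70 and 1.41. *Nrg1* had the opposite order, with 1.03 for #1 against #2 and −2.19 for #3 against #1. The adjusted p-values ran from 0.000647 to 0.0460 over these 6 differences. For *Tgfa* the difference between #3 and #1 fell to 0.94 with a pseudocount of 1 CPM and was then not called. That of *Areg* between #3 and #1 fell under 1 on leaving out some samples. The *Nrg1* difference between #1 and #2 was no longer called on leaving out any 1 sample. It was also lost after rescaling by the median ratio and with quantile normalization (adjusted p = 0.0719 and 0.149). Groups of 3 samples are too small for a test of single outlying samples, so none was made.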

How the results depend on the processing

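Of 1001 log2 fold changes of members and called list genes recomputed under alternatives that leave out no single sample, 970 kept their direction and their side of the threshold, 27 were no longer called, 4 were newly called and 0 reversed. On leaving out 1 sample, 451 of 504 did so, 32 were no longer called and 20, all of differences not called, changed sign. The counts of members called moved by more than 1.5 times for the mean of the 3 *KEAP1* KO clones alone. Against LL2 WT 6 became 3 with a pseudocount of 1 CPM (*Egfr*, *Ereg* and *Btc* remained) and ran from 3 to 6 on leaving out 1 sample, and against *NRF2* KO 2 ran from 1 to 3.

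The ranges that crossed 0 on leaving out 1 sample were, against LL2 WT, −0.0502 to 0.0102 for *Erbb2* and −0.0170 to 0.35 for *Tgfa* in clone #1. For *Erbb3* they were −0.0011 to 0.66 in clone #2, −0.37 to 0.54 in clone #3 and −0.56 to 0.0280 in *NRF2* KO. In *NRF2* KO they were −0.86 to 0.18 for *Btc*, −0.0409 to 0.55 for *Hbegf* and −0.0741 to 0.51 for *Nrg1*. For clone #3 against #2 they were −0.59 to 0.11 for *Egfr*, −0.23 to 0.11 for *Erbb2*, −0.64 to 0.27 for *Erbb3* and −0.0793 to 0.46 for *Btc*.

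Same-numbered samples of different lines deviated together with a median r of 0.276 over 30 pairs, against −0.192 over 60 pairs with different numbers. Of these pairs 22 and 11 were over 0.1. As 8 same-numbered pairs were at or under 0.1, the main model did not pair the samples, and it leaves the deviation that the numbers share in the spread. With the replicate block, *Btc* was called also in clone #2 (adjusted p = 0.000573), the counts of members called against LL2 WT were 2, 6, 6 and 0, and 179 genes in place of 68 were called in *NRF2* KO. That *NRF2* KO count was 173 with replicate 3 as a batch, 43 with replicates 1 and 2 alone, and 7 with only the 2 lines in the model. A pseudocount of 1 CPM lowered the counts of all genes called to 784, 1275, 1303 and 44, from 1251, 2006, 1967 and 68. The median of all genes in clone #1 was 0.113, and 0.0101 after rescaling by the median ratio, which moved the share of higher calls there from 53.3% to 43.3% (44.6% with quantile normalization). The cause of these changes was not tested. Each knockout line is 3 samples of 1 clone, and the depth of each sample is unknown.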
